A study of Mus musculus with 4 samples.

Results

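The tubulin isotypes described here are 10 mouse genes taken by symbol, the beta-tubulin genes Tubb2a, Tubb2b, Tubb3, Tubb4b, Tubb5 and Tubb6 and the alpha-tubulin genes Tuba1a, Tuba1b, Tuba4a and Tuba8. All 10 were found among the 49585 genes of the count files. Their RNA was measured by stranded, paired-end mRNA sequencing in C2C12 cells, a C3H mouse myoblast line whose cells fuse into multinucleated myotubes when serum is withdrawn. The comparison is between 2 libraries of cells transduced with the empty retroviral vector pLXSN (the controls) and 2 libraries of cells transduced to overexpress the transcription factor C/EBPβ. Both groups passed through retroviral infection and 7 days of G418 at 1200 µg/ml, were kept as pools of resistant cells rather than clones, proliferated for 2 days and were then kept for 2 days in 2% horse serum, so all libraries come from differentiating cultures. Nothing in the labels tells whether replicates came from separate cultures. Every p-value here sets the difference between the groups against the spread of libraries within a group, and that spread may be only technical.

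Microtubules are hollow polymers of alpha- and beta-tubulin dimers, and mammals encode several genes for each partner that differ mainly in the acidic C-terminal tail exposed on the microtubule surface. The tails are the site of most tubulin modifications and of contact with motors and microtubule-associated proteins. When a myoblast differentiates, its microtubules leave the centrosome, are nucleated from the nuclear envelope and align along the long axis of the myotube, where they carry nuclei and membrane cargo. The amount of tubulin mRNA is also under feedback from soluble tubulin, which triggers decay of the mRNAs being translated.

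All 9 tubulin genes with enough fragments to be tested were lower in the C/EBPβ cells, and the tenth, Tuba8, was barely detected. The falls ranged from 1.34-fold for Tubb5, the ubiquitous class I beta-tubulin, to 2.61-fold for Tuba4a, an alpha-tubulin made without the C-terminal tyrosine that most alpha chains carry. Of all 15886 genes tested, 43.2% changed in either direction, with 20.9% lower and 22.3% higher (edgeR quasi-likelihood test, Benjamini-Hochberg adjusted p under 0.05). The median log2 fold change of the 9 tubulin genes was -0.66, beside 0.01 over all tested genes. In each of the 9, both C/EBPβ libraries were below both controls, an arrangement found for 36.7% of tested genes.

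Cebpb itself, which checks the labels, stood at 42.7 and 41.3 CPM (a gene's fragments scaled to a common library total) in the controls and at 502 and 442 CPM in the C/EBPβ libraries, a log2 fold change of 3.49 (SE 0.11, edgeR adjusted p = 9.03e-07). The libraries held 36461091 to 51537847 assigned fragments. All 10 skeletal muscle markers listed were detected in every library, including Acta1 and Myh3, and their summed level was 23214 and 25682 CPM in the controls and 6635 and 10614 CPM with C/EBPβ. Of these markers 9 were lower and Myf5 was higher. Without control replicate 2 fewer of them were lower, as over all tested genes. In bulk RNA, fewer cells of a type and less RNA per cell cannot be told apart.

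The stretches upstream of Tubb4b and Tubb5 are shown because, among the members with a promoter entry, their windows held the most copies of the CCAAT box, a common element of promoters without a TATA box. RefSeq promoter windows of GRCm38.p6 (250 bases before to 50 bases after the start, 300 bases in all) were found for 8 of the 10 genes. Each line gives bases -230 to -11 before the start, 5′ to 3′ on the gene's strand, with CCAAT in capitals. The Tubb4b stretch is chr2:25224713-25224932 and the Tubb5 stretch is chr17:35838312-35838531, both on the minus strand.
Tubb4b: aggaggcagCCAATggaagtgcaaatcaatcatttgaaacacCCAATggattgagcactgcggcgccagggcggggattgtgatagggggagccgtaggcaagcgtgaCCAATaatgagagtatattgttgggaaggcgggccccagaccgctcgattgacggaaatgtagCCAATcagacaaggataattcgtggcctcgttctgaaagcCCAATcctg
Tubb5: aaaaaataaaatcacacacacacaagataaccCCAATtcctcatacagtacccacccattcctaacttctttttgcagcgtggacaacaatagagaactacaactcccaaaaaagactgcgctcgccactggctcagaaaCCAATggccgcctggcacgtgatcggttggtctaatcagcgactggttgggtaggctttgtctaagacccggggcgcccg
The Tubb4b window held 5 copies and the Tubb5 window 2, all on the strand of the gene, and Tubb3 and Tuba1a held 1 each. On either strand CCAAT occurred at least 1 time in 37.4% of 32851 windows of this length, at least 2 times in 11.7% and at least 5 times in 0.271%. The C/EBP motif TTGCNNAA occurred in 10.8% of all windows, and none of the 8 tubulin windows held these letters on either strand. The E-box CAGCTG occurred in 16.3% of all windows and in the window of Tuba1b only among the 8. None of the matches overlapped, and a match is a description of the letters, not of binding.

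Among the tested alpha-tubulins, the falls ran from 1.45-fold for Tuba1a to 2.61-fold for Tuba4a. Tuba1a, the main alpha-tubulin of young neurons, stood at 657 and 765 CPM in the controls and 438 and 543 CPM in the C/EBPβ libraries. Its log2 fold change was -0.53 (SE 0.14, n = 2 each, adjusted p = 0.0150 in edgeR). Both C/EBPβ libraries were below both controls. Tuba1b, a broadly expressed alpha-tubulin, stood at 118 and 139.9 CPM in the controls and 78.6 and 84.7 CPM with C/EBPβ. The C/EBPβ libraries were close to each other and both below the controls, with a log2 fold change of -0.66 (SE 0.10, edgeR adjusted p = 0.00144).

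Tuba4a fell from 169.8 and 178 CPM in the controls to 51.9 and 81.5 CPM with C/EBPβ. Its log2 fold change of -1.38 (SE 0.22, edgeR adjusted p = 0.00647) was lower than that of all but 4.87% of tested genes. The controls nearly coincided, whereas the C/EBPβ libraries differed by 0.65 on the log2 scale, the widest gap between libraries of a group among the 9 genes. Tuba8, an alpha-tubulin known from heart, skeletal muscle and testis, had 1 fragment in control replicate 2 and none in the other 3 libraries. A count of 0 allows up to 3 fragments, or 0.0574 to 0.0820 CPM in these libraries (counting error only), so Tuba8 was at or under the detection limit in both groups and no fold is given.

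Among the beta-tubulins, the falls ran from 1.34-fold for Tubb5 to 2.43-fold for Tubb3. Tubb6, the class V isotype known from regenerating and dystrophic muscle, stood at 857 and 924 CPM in the controls and at 409 and 524 CPM with C/EBPβ. That is a 1.91-fold fall, with a log2 fold change of -0.93 (SE 0.14, edgeR adjusted p = 0.00129). Tubb5 stood at 794 and 873 CPM in the controls and 593 and 653 CPM with C/EBPβ. Its log2 fold change was -0.42 (SE 0.11, edgeR adjusted p = 0.0182), the smallest of the 9. In both genes each C/EBPβ library was below each control.

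Tubb2a and Tubb2b, neighbouring class II genes known for high levels in brain, were both lower. Tubb2a stood at 304 and 342 CPM in the controls and 216 and 248 CPM with C/EBPβ (log2 fold change -0.48, SE 0.11, edgeR adjusted p = 0.00896). Tubb2b stood at 346 and 390 CPM and at 221 and 249 CPM (log2 fold change -0.65, SE 0.11, edgeR adjusted p = 0.00218). In both, each C/EBPβ library was below each control, and whether the falls differ between the genes was not tested. Tubb4b, the widely expressed class IVb isotype, stood at 94.5 and 110.5 CPM in the controls and 61.0 and 67.9 CPM with C/EBPβ, a log2 fold change of -0.67 (SE 0.10, edgeR adjusted p = 0.00133).

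Tubb3, the class III isotype used as a marker of neurons, had the smallest adjusted p of the 9. It stood at 37.8 and 41.7 CPM in the controls and 17.6 and 15.1 CPM with C/EBPβ, a 2.43-fold fall with a log2 fold change of -1.28 (SE 0.11, edgeR adjusted p = 8.97e-05). Tubb3 was the only one of the 9 that was lower in C/EBPβ replicate 2 than in replicate 1, by 0.22 on the log2 scale, while the other 8 were higher in replicate 2 by 0.11 to 0.65.

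**Figure D1:**
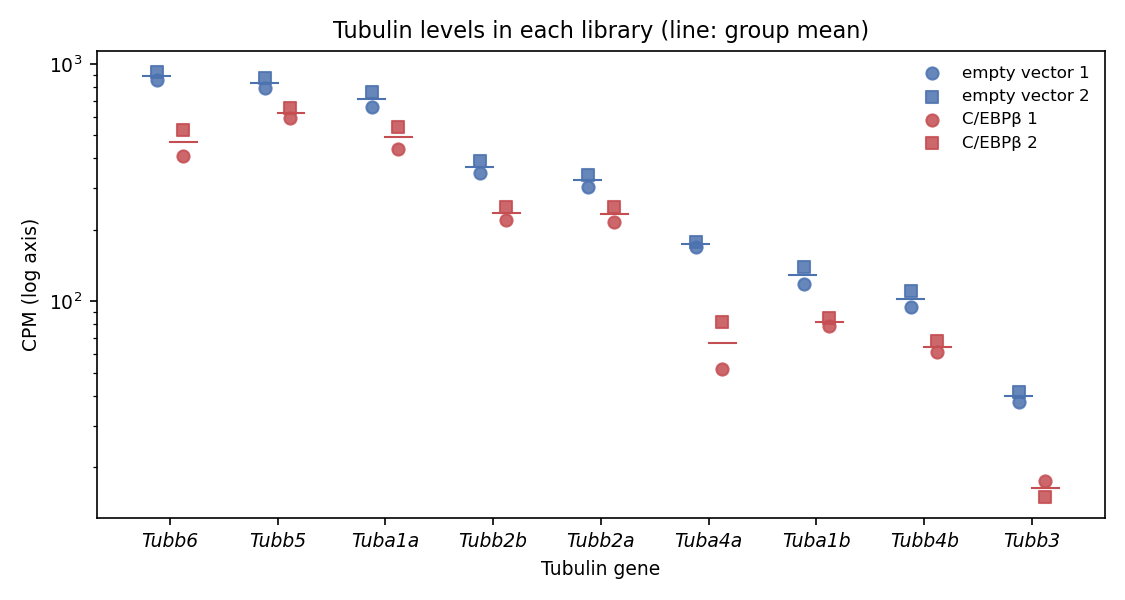
CPM of the 9 tested tubulin genes in each library on a log axis, with controls in blue, C/EBPβ libraries in red, circles for replicate 1, squares for replicate 2 and a line at each group mean. For every gene the red points lie below the blue points, from Tubb6 (857 and 924 against 409 and 524 CPM) to Tubb3 (37.8 and 41.7 against 17.6 and 15.1 CPM).

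Some of these calls were lost when 1 control library was left out, and fewer of all tested genes passed in those fits too. Such a fit takes the spread within groups from the C/EBPβ libraries alone. Without control replicate 2, Tubb2a, Tubb5, Tuba1a and Tuba4a did not pass, at log2 fold changes of -0.39, -0.35, -0.42 and -1.35. Without control replicate 1, Tuba4a did not pass either. The log2 fold change of Tuba4a was -1.42 without control replicate 1 and -1.35 without control replicate 2, against -1.38 with all libraries. The log2 fold changes stayed below 0 for all 9 genes whichever library was left out, from -1.76 to -1.09 for Tuba4a and from -0.51 to -0.35 for Tubb5. In the authors' deposited table the log2 fold changes of the 9 genes ran from -1.44 for Tuba4a to -0.48 for Tubb5, and Tuba8 has no row. The libraries behind that table are not given in the sources used here. Its averaged signal for Tubb3 and Tubb5 was above the fragment count of every library here, so it does not rest on these counts alone.

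**Figure D2:**
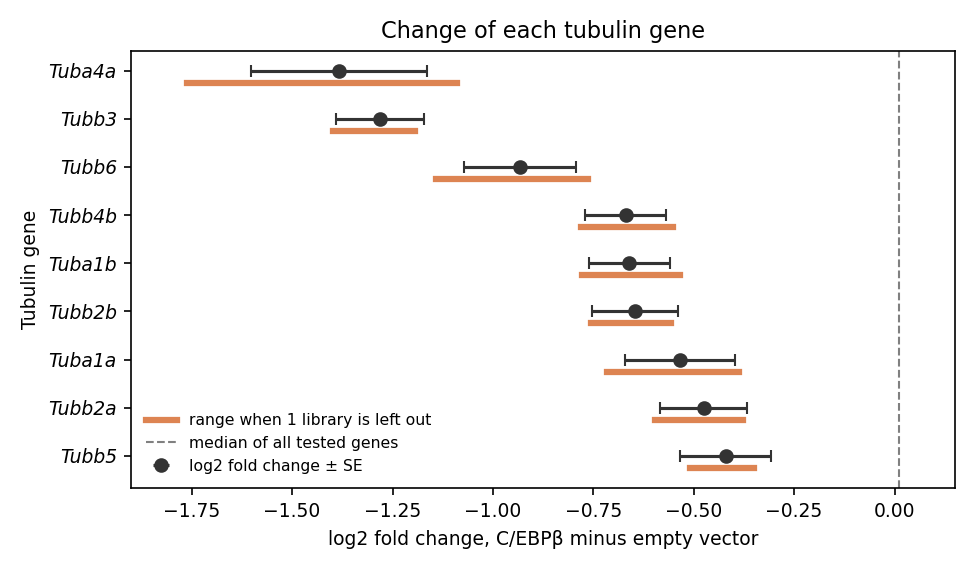
log2 fold change (C/EBPβ minus empty vector) of each tested tubulin gene with its standard error in black, the range of values with 1 library left out in orange, and the median of all tested genes as a dashed line. Tuba4a (-1.38), Tubb3 (-1.28) and Tubb6 (-0.93) lie furthest to the left, and no orange bar reaches 0.

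Summed over members, the RNA of both partners of the dimer was lower to a similar extent. The 4 alpha genes together stood at 945 and 1082 CPM in the controls and 569 and 709 CPM with C/EBPβ. The 6 beta genes stood at 2433 and 2680 CPM in the controls and 1518 and 1757 CPM with C/EBPβ. The ratio of the C/EBPβ mean to the control mean was 0.631 for alpha and 0.640 for beta. Together the 10 genes accounted for 0.350% of assigned fragments in control libraries and 0.232% with C/EBPβ. With 2 libraries against 2, an exact permutation test cannot give a 2-sided p below 0.333, so the sums were not tested.

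Levels of different genes were compared as FPKM, the CPM divided by the kilobases of merged exons in the count files. In the controls the order was Tubb6 (507 ± 27.1 FPKM, SD, n = 2), Tuba1a (432 ± 46.1), Tubb5 (250 ± 16.7), Tubb2a (204 ± 16.7), Tubb2b (191 ± 16.3), Tuba1b (68.8 ± 8.19), Tubb4b (49.1 ± 5.41), Tuba4a (46.9 ± 1.498) and Tubb3 (21.3 ± 1.48). Only Tubb2a and Tubb2b, and Tubb4b and Tuba4a, had overlapping values with their neighbour in that order. With C/EBPβ the order began with Tuba1a (298 ± 44.9 FPKM) and Tubb6 (265 ± 46.3 FPKM), whose values overlapped, and went on in the same sequence as in the controls, with no other neighbours overlapping. The order by exon length depends on how much of each gene can be counted, which differs most for Tuba1a.

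The makeup of each class differed between the groups. Among the alpha members, Tuba4a made up 9.03% and 8.18% of the summed FPKM in the controls and 4.35% and 5.55% with C/EBPβ, while Tuba1a made up 78.6% and 79.1%, then 82.6% and 83.1%. Among the beta members, Tubb6 made up 41.9% and 41.0% in the controls and 33.2% and 36.3% with C/EBPβ, and Tubb3 made up 1.74% in both controls, then 1.34% and 0.982%. The shares of Tubb5 (20.5% in both controls, 25.4% and 23.9% with C/EBPβ) and Tubb2a (16.5% and 16.8%, then 19.5% and 19.1%) were higher in both C/EBPβ libraries, although the level of each gene was lower. The groups overlapped for the shares of Tuba1b, Tubb2b and Tubb4b. The shares were not tested, since 2 libraries a group cannot pass a permutation test.

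**Figure D3:**
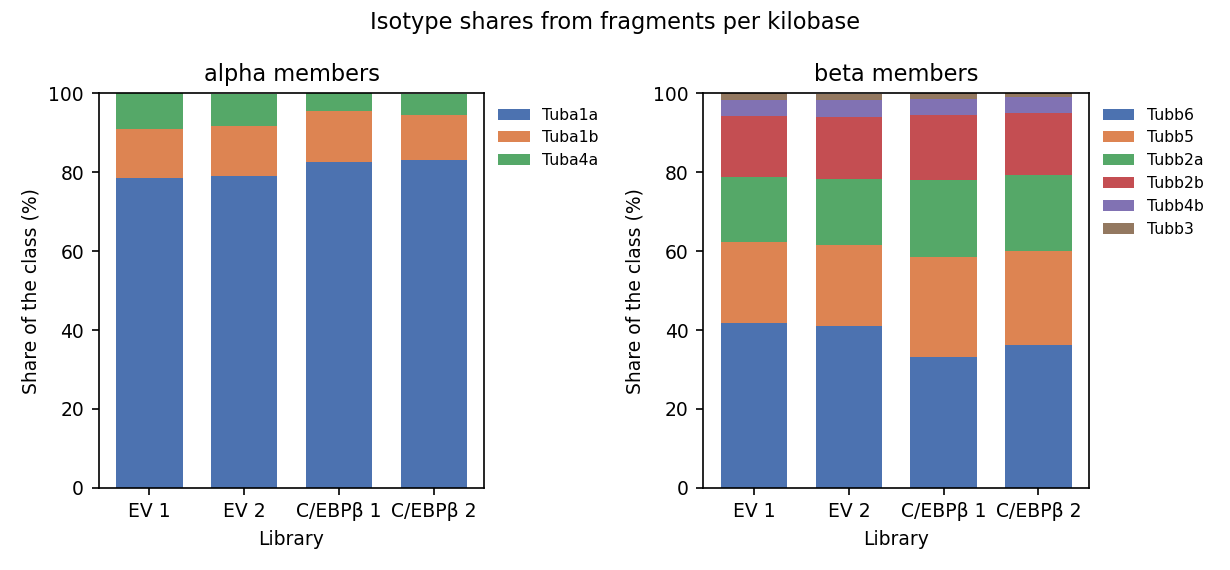
Share of each gene in the summed fragments per kilobase of the alpha members (left) and of the beta members (right), in percent, as 1 stacked bar per library, with EV for empty vector and Tuba8 too low to draw. Tuba4a takes 9.03% and 8.18% of alpha in the controls and 4.35% and 5.55% with C/EBPβ, and Tubb6 takes 41.9% and 41.0%, then 33.2% and 36.3%, of beta.

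How much of a tubulin gene can be counted differs between isotypes, because fragments that map to several places are left out by the counting program at its defaults. Of the 100-base windows in its GENCODE M21 transcripts, Tuba1a shared 65.1% with transcripts of other genes, Tuba1b 62.1%, Tubb2a 36.9%, Tubb2b 26.0% and Tubb4b 21.0%. The windows of Tubb3, Tubb5, Tubb6, Tuba4a and Tuba8 had no exact match of that length elsewhere. The partners of Tuba1a were Tuba1b, Tuba1c, Gm49450 and processed pseudogenes, and Tubb2a and Tubb2b shared mainly with each other, so the levels of these genes are uncertain to that extent. Scaled by 100-base windows not shared instead of exon length, a choice made after the data were seen, the mean share of the beta class in the controls was 30.0% for Tubb6 and 26.7% for Tubb2a, against 41.5% and 16.7% by exon length. With C/EBPβ it was 24.3% for Tubb6 and 29.9% for Tubb2a, so the order of these genes turns there. The same scaling put Tuba1a first in both groups, at a mean of 1195 ± 128 CPM per 1000 unshared windows in the controls (SD, n = 2) against 381 ± 20.4 for Tubb6, so the top rank of Tubb6 in the controls holds only by exon length. With 50-base windows Tuba1a was again first and Tubb2a (29.6%) was above Tubb6 (26.9%) within the beta class in the controls too. Under the 100-base scaling Tuba4a took 3.10% of alpha in the controls and 1.74% with C/EBPβ. In both scalings the shares of Tuba4a, Tubb3 and Tubb6 were again lower in both C/EBPβ libraries.

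The shared sequence follows the genome in part, since near neighbours are near copies. On GRCm38, Tuba1b (chr15:98931425-98934565) and Tuba1a (chr15:98949841-98953551) lie 15275 bases apart on the minus strand of chromosome 15. Tubb2a (chr13:34074301-34078008) and Tubb2b (chr13:34127008-34130354) lie 48999 bases apart on the minus strand of chromosome 13. The other members have no member on the same chromosome. These are Tuba4a (chr1:75214228-75219865, minus), Tubb4b (chr2:25222160-25224702, minus), Tuba8 (chr6:121210696-121226854, plus), Tubb3 (chr8:123411424-123422015, plus) and Tubb5 (chr17:35833921-35838306, minus), with Tubb6 on the plus strand of chromosome 18 from 67390717 to 67402748. Of the exon bases of Tuba4a, 37.3% overlap Stk16 on the opposite strand. The counting used strand, and Stk16 stood at 55.3 and 51.0 CPM in the controls and 61.9 and 59.1 CPM with C/EBPβ (edgeR adjusted p = 0.0876).

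Likeness across the 4 libraries was measured as the root mean square distance between log2 CPM centred on each gene's own mean. The closest pair was Tubb4b and Tuba1b (0.0186), a beta and an alpha gene on different chromosomes, followed by Tubb2b and Tubb4b (0.0220). The furthest pair was Tubb5 and Tuba4a (0.531). Out of 11753 protein-coding genes averaging 1 CPM or more, the 3 nearest to Tuba4a were Synpo2l (0.0199), which encodes a Z-disc protein, Baiap2l1 (0.0258) and Filip1 (0.0347). The 3 nearest to Tubb3 were Otoa (0.0311), Aldh3b1 (0.0388) and Flrt1 (0.0524). With 4 libraries in 2 groups these distances describe the libraries only.

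Marker lists of other programmes moved beside the tubulins. All 24 sarcomere genes listed were lower with C/EBPβ, beside 20.9% of all tested genes. All 24 were higher in C/EBPβ replicate 2 than in replicate 1, with a median gap of 0.85 on the log2 scale. Their summed levels were 35681 and 40709 CPM in the controls and 9696 and 16187 CPM with C/EBPβ. Of 24 genes listed for mitosis, 23 were lower, beside the same 20.9%, and Cdk1 did not pass (edgeR adjusted p = 0.0585). With the replicate number as a block, 17 were lower. Top2a, which untangles DNA before division, stood at 134 and 183 CPM in the controls and 78.4 and 66.1 CPM with C/EBPβ (edgeR adjusted p = 0.00278). Mki67, a marker of cycling cells, stood at 74.6 and 121 CPM and at 44.7 and 36.8 CPM (edgeR adjusted p = 0.0225), and did not pass with the block (0.149) or without the low-count filter (0.196). None of the 24 mitosis genes was higher in C/EBPβ replicate 2 than in replicate 1, with a median gap of -0.30. Their sums were 758 and 1054 CPM in the controls and 472 and 386 CPM with C/EBPβ. Between the C/EBPβ libraries, 8 of the 9 tubulin genes had the sign of the sarcomere list, with the widest gap in Tuba4a (0.65). Tubb3 (-0.22) alone had the sign of the mitosis list. The share of all tested genes higher in replicate 2 than in replicate 1 is not given here. Without control replicate 1 or control replicate 2, fewer of the sarcomere genes passed, as over all tested genes. Without the low-count filter 15 of the sarcomere genes passed. The part of either programme in the tubulin values was not tested.

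Neuronal genes listed beside Tubb3 ranged from no fragment to the 55.4 and 58.8 CPM of Stmn2 in the controls. Of 16 genes, 9 could be tested and 7 of these were lower, beside 20.9% of all tested genes. The list includes Stmn2, Stmn4, Map2 and Tubb4a, which are also counted in the lists of tubulin and microtubule genes below. Stmn2 led in CPM and stood at 15.2 and 15.7 CPM with C/EBPβ. Averaged over all libraries Syn1 followed in CPM, at 16.9 and 20.3 CPM in the controls and 12.7 and 13.6 CPM with C/EBPβ. Map2 was above Syn1 in the controls, at 20.1 and 20.9 CPM, and stood at 3.96 and 6.18 CPM with C/EBPβ. Syn1 did not pass without control replicate 2 (edgeR adjusted p = 0.108). Stmn4 and Tubb4a did not pass. The summed level was 103 and 112 CPM in the controls and 35.8 and 39.2 CPM with C/EBPβ. The neuronal markers Rbfox3, Snap25 and Elavl4 had no fragment in any library, and Syt1 had 0.0191 CPM in 1 library. Lists for 6 other cell types gave log2 fold change medians of 0.99 for fibroblast, 5.92 for adipocyte and 0.49 for macrophage genes. The medians were -1.31 for endothelial, 0.64 for smooth muscle and 0.29 for platelet genes. In that order 11, 5, 7, 3, 6 and 3 genes were tested. Of these, 1, 0, 1, 2, 2 and 0 were lower and 7, 5, 3, 0, 3 and 1 higher. Over all tested genes 20.9% were lower and 22.3% higher. The part of these cell types in the tubulin values was not tested.

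Of the 10 remaining tubulin genes 5 could be tested, and 4 of them were lower and none was higher. Over all tested genes, 20.9% were lower and 22.3% higher. Tuba1c, a further alpha-tubulin, stood at 124 and 118 CPM in the controls and 89.7 and 95.5 CPM with C/EBPβ (log2 fold change -0.39, SE 0.08, edgeR adjusted p = 0.00579), and 46.0% of its 100-base windows are shared with other genes. Tubg1, the gamma-tubulin that nucleates microtubules, fell from 37.3 and 39.7 to 27.4 and 27.0 CPM (edgeR adjusted p = 0.00223), and Tubd1 and Tube1, the delta- and epsilon-tubulins of centrioles, fell by 0.51 and 0.70 on the log2 scale. Tubb4a, at 0.471 and 0.277 CPM in the controls and 0.153 and 0.410 CPM with C/EBPβ, did not pass (edgeR adjusted p = 0.495). Without control replicate 2 Tubd1 and Tube1 did not pass (edgeR adjusted p = 0.0815 and 0.140).

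The gene lists that follow are read against the 43.2% of all tested genes that changed, with 20.9% lower and 22.3% higher. Of the genes for folding tubulin, 13.6% did. Of 22 genes for the CCT chaperonin, prefoldin, the tubulin cofactors and the autoregulation factor Ttc5, 3 were lower and none was higher, with a median log2 fold change of -0.17. Tbcd, the cofactor that assembles the dimer with beta-tubulin, fell by 0.64 on the log2 scale (SE 0.12, edgeR adjusted p = 0.00344). Tcp1 and Cct8, subunits of the chaperonin, fell by 0.31 and 0.32 on the log2 scale, and Cct2, the gene of this list with the highest CPM, at 499.9 and 531 CPM in the controls and 416 and 446 CPM with C/EBPβ, did not pass (edgeR adjusted p = 0.0722). Tcp1 did not pass without control replicate 1, control replicate 2 or C/EBPβ replicate 1 (edgeR adjusted p = 0.0865, 0.182 and 0.119). The count of lower genes was 7 without the low-count filter, 6 with the replicate number as a block and 5 in DESeq2. It was smaller without control replicate 1, control replicate 2 or C/EBPβ replicate 1, as over all tested genes. Without C/EBPβ replicate 2 it was larger, again as over all tested genes.

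Of the genes listed for tubulin modification, 42.9% changed in either direction, close to the share over all tested genes. More of them were lower than higher, whereas over all tested genes 20.9% were lower and 22.3% higher. Svbp, the partner of the vasohibins that remove the terminal tyrosine of alpha-tubulin, stood at 84.7 and 98.6 CPM in the controls and 50.5 and 53.9 CPM with C/EBPβ (log2 fold change -0.81, SE 0.09, edgeR adjusted p = 0.000398). Ttll1, a polyglutamylase subunit, fell by 0.47 on the log2 scale. Ttll6, another polyglutamylase, rose from 0.0897 and 0.0593 to 0.593 and 0.601 CPM. Its control values rest on 4 and 3 fragments, about the detection limit, so the size of the rise is uncertain. Agbl5, a deglutamylase, rose from 8.90 and 8.28 to 17.1 and 12.9 CPM. Sirt2, a tubulin deacetylase with the highest CPM of the list, stood at a log2 fold change of 0.03 (edgeR adjusted p = 0.787). Of 27 genes, 21 were tested, 7 were lower and 2 higher, with a median of -0.11. Fewer were lower without control replicate 2, as over all tested genes. Ttll6 was not tested with a filter at 1 CPM.

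Of the proteins that bind the lattice or the growing end, 69.2% changed, beside 43.2% of all tested genes. Mapt, which encodes tau, fell from 14.1 and 15.7 CPM in the controls to 1.78 and 2.19 CPM with C/EBPβ (log2 fold change -2.92, SE 0.16, edgeR adjusted p = 1.15e-05), and Map2, its relative, from 20.1 and 20.9 to 3.96 and 6.18 CPM. Clip3 rose from 24.3 and 19.7 to 45.6 and 44.1 CPM, and Mapre2, an end-binding protein of the EB family, rose by 0.58 on the log2 scale. Macf1, a crosslinker of actin and microtubules with the highest CPM of the list, fell by 0.65 (edgeR adjusted p = 0.0497), and did not pass with library sizes alone (0.0552), with a filter at 1 CPM (0.0558) or without control replicate 2 (0.248). Of 26 genes tested from 28 listed, 12 were lower and 6 higher, with a median of -0.15. Fewer were higher without control replicate 1 or without control replicate 2, as over all tested genes. Among destabilizing and severing proteins, 6 of 12 tested from 13 listed were lower and none was higher (median -0.48), beside 20.9% lower over all tested genes. They included Stmn2 (log2 fold change -1.89, SE 0.08) and Spast, the severing enzyme spastin (-0.45, SE 0.07), while Kif2a stood at -0.24 (edgeR adjusted p = 0.0549).

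Of the genes of microtubule organizing centres, 41.9% changed in either direction, close to the share over all tested genes. Most of those that changed were lower, whereas over all tested genes 20.9% were lower and 22.3% higher. Akap6 and Syne1, which anchor the organizing centre at the nuclear envelope of myotubes, fell by 1.32 and 0.61 on the log2 scale, Akap6 from 132 and 135 to 44.7 and 62.2 CPM. Ninl, a centrosomal relative of ninein, rose by 0.63 (SE 0.10, edgeR adjusted p = 0.00149). Pcm1, the pericentriolar scaffold with the highest CPM of the list, stood at -0.18 (edgeR adjusted p = 0.118). Of 31 genes, 12 were lower and 1 higher, with a median of -0.23. Fewer were lower without control replicate 2, as over all tested genes.

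Of the cargo kinesin genes 70.0% changed, and of the dynein and dynactin genes 39.1%, beside 43.2% of all tested genes. Kif5b, the main heavy chain of conventional kinesin, fell from 427 and 422 CPM in the controls to 223 and 260.5 CPM with C/EBPβ (log2 fold change -0.81, SE 0.11, edgeR adjusted p = 0.000717), and its light chain Klc1, with the highest CPM of the list, fell by 0.79. Kif21a and Kif21b rose by 0.83 and 1.23 on the log2 scale. Of 20 cargo kinesin genes, 8 were lower and 6 higher (median -0.15). Fewer were higher without control replicate 2, as over all tested genes. Dync1i1, a dynein intermediate chain, fell by 1.01 (SE 0.08, edgeR adjusted p = 6.34e-05) and Bicd2, a cargo adaptor, by 0.74, while the heavy chain Dync1h1 stood at 430.2 and 454 CPM in the controls and 428 and 459 CPM with C/EBPβ. Ndel1 and Dynll2 rose by 0.30 and 0.33 on the log2 scale. Of 23 dynein and dynactin genes, 7 were lower and 2 higher (median -0.13). Fewer passed in each direction without control replicate 2, and fewer were higher without control replicate 1, as over all tested genes. The muscle RING finger proteins are ubiquitin ligases that include microtubule-associated members. All 3 of their genes were lower, beside 20.9% of all tested genes. The log2 fold changes were -1.89 for Trim63, -1.37 for Trim55 and -1.49 for Trim54. Trim54 did not pass without control replicate 1 or without control replicate 2 (edgeR adjusted p = 0.116 and 0.117).

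**Figure D4:**
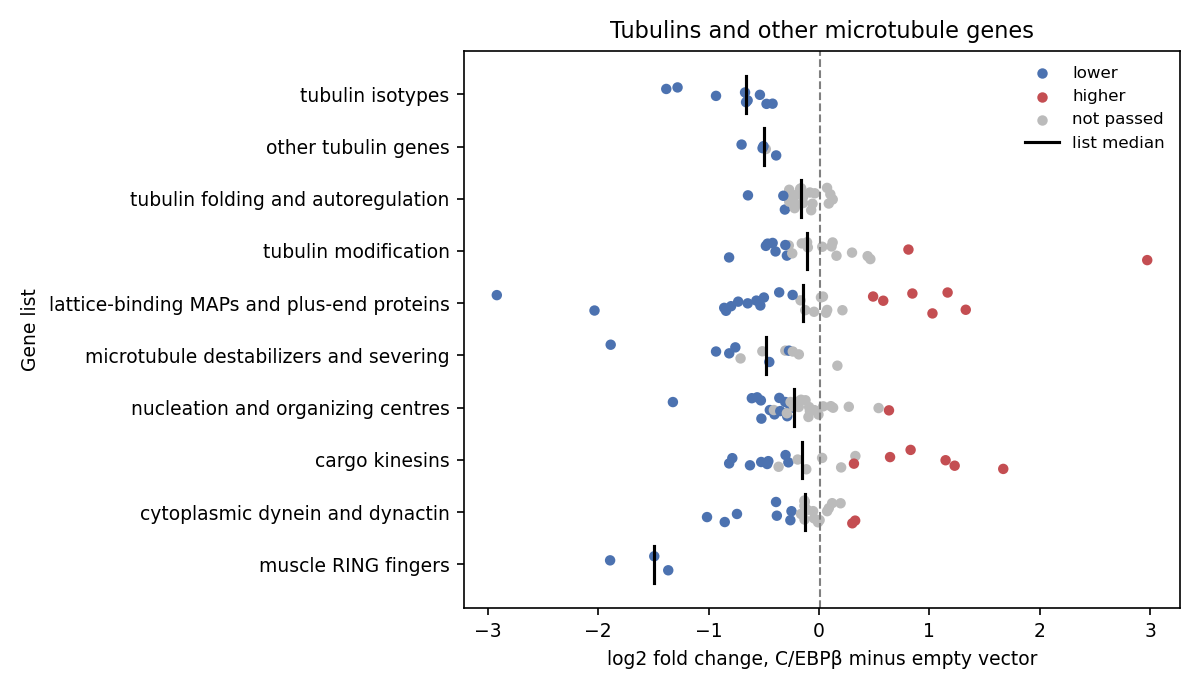
log2 fold change (C/EBPβ minus empty vector) of every tested gene in each microtubule list, coloured by whether it passed as lower, passed as higher or did not pass, with the list median as a black line and the median of all tested genes dashed. All 9 tubulin isotypes lie left of the dashed line with a median of -0.66, while the lists of modifying enzymes, lattice-binding proteins and cargo kinesins spread to both sides.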

How the data were processed

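Raw counts of fragments per gene and library were deposited. By the submitters' processing notes, HISAT2 2.0.4 and featureCounts 1.4.6 were used on GRCm38, whereas the file headers name featureCounts 1.5.1, paired fragments on the reverse strand and GENCODE M12, with no option for fragments with several locations. The exon lengths used for FPKM come from the same headers' tables. The authors' deposited table holds a log2 fold change for each gene it lists, and only these are printed. Its other columns, per the file headers, are the error, a p-value (raw and adjusted), a test score and the signal averaged over libraries.

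Of 49585 genes, 26401 had a fragment and 15886 passed filterByExpr (minimum count 10, minimum total 15). Counts were scaled by TMM and compared with edgeR 4.0.16 in R 4.3.3 (glmQLFit, robust, glmQLFTest, 2-sided, Benjamini-Hochberg over all genes tested, threshold 0.05). Standard errors were taken from the quasi-likelihood F statistic. Symbols were matched for 49326 identifiers. Alternatives were DESeq2 1.42.0, limma-voom (limma 3.58.1), median-ratio size factors, library sizes alone, no filter, a filter at 1 CPM in 2 libraries, no robust estimation, a replicate block and leaving out each library.

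The members and lists were chosen with earlier results of these data known. Named genes followed a rule: all members, the other tubulin genes tested, in each pathway list the 2 called genes with the smallest p in each direction and the gene with the highest mean CPM, in each context list the 2 with the highest (those of the cell types summarised by medians are not printed), and the 3 genes most like Tuba4a and Tubb3. Cct8, Trim54, Stmn4, Cdk1, Myf5, Stk16, Rbfox3, Snap25, Elavl4 and Syt1 were named after their values were seen. Replicates were not copies (chi-square per degree of freedom 19.4 between controls and 27.7 between C/EBPβ libraries). On simulated counts with 15599 genes tested, 68 genes were altered by 1.5-fold, 64 by 2-fold and 68 by 4-fold. The share of them recovered was 64.7% at 1.5-fold, 71.9% at 2-fold and 97.1% at 4-fold. So few altered genes make the adjusted threshold stricter than in the data, where 43.2% passed. These shares therefore do not carry over to the comparison here.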

Additional observations from a re-analysis of the deposited data

How the results depend on the processing

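All 9 tested tubulin genes passed as lower in each of the 8 alternatives that kept all 4 libraries, and their direction held in all 12 alternatives. The number of tubulin genes passing was 5 to 9 when a library was left out (5 without control replicate 2, 8 without control replicate 1). With libraries left out in turn, the log2 fold change ran from -0.60 to -0.38 for Tubb2a, -0.51 to -0.35 for Tubb5, -0.72 to -0.39 for Tuba1a and -1.76 to -1.09 for Tuba4a, the number of genes changed from 4005 to 7414, against 6864 with all libraries, and the number of pathway genes passing from 47 to 88, against 79. Fewer libraries entered these fits, and where 1 library was left in a group it was assumed to vary like the other group. With the replicate number as a block, 7676 genes and 86 pathway genes passed and the calls of the 9 tubulin genes were kept. In that fit 17 of 24 mitosis genes passed, against 23 without the block. Libraries with the same number deviated together only weakly (correlation 0.13 across genes), and the labels do not say that a number marks a shared culture, so the block was not used for the results. No other scaling moved the median of all genes by more than 0.0549 on the log2 scale, with library sizes alone. Depth limits Tuba8, and near-identical copies limit the levels of Tuba1a, Tuba1b, Tubb2a, Tubb2b and Tubb4b. The deposited counts do not show how many fragments were left out for them.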
